A study of Homo sapiens with 8 samples.

Results

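The serine/arginine-rich (SR) protein and TRA2 splicing factors were followed through the depletion of CHERP in U2OS cells. They were taken by gene symbol: SRSF1, SRSF2, SRSF3, SRSF4, SRSF5, SRSF6, SRSF7, SRSF11, TRA2A and TRA2B, which make 10 of the 12067 genes listed in the deposited splicing tables and 270 of the 132938 splicing events. U2OS is an established human osteosarcoma cell line, and CHERP is a nuclear protein that associates with the U2 small nuclear ribonucleoprotein of the spliceosome. Cells received the siRNA CHERP#2, or an siRNA against EGFP as the control, at 20 nM for 48 h, and RNA was taken from whole cells or from the cytoplasm, with 2 libraries in each of the 4 groups. A single CHERP siRNA was used, so an effect of its sequence and of the loss of CHERP cannot be told apart here. The study describes the libraries of a group as biological replicates, and whether they are from separate cultures is not given in the sources used here. The p-values measure only spread between these libraries, and for splicing a spread shared by events of similar depth, not the event's own.

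SR proteins carry RNA recognition motifs and a domain rich in arginine and serine dipeptides, and they bind exonic enhancers to help define which exons are used. TRA2A and TRA2B are their close relatives and prefer purine-rich sequence with GAA repeats. Most genes of the family hold a poison exon, a conserved cassette exon that brings a premature stop codon into the transcript and so exposes it to nonsense-mediated decay, and SR proteins are known to control their own levels and each other's through these exons. SRSF5 also keeps some of its introns in a share of its transcripts.

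Reads over the splicing events ranged from 29409956 to 35664568 per library in whole cells and from 5370756 to 6580099 in the cytoplasm, so small differences were easier to see in whole cells. VIM, a mesenchymal gene of such cells, had 57402 to 80880 reads per whole-cell library. CDH2 had 87 to 176 and RUNX2 had 0 to 18, whereas COL1A1, COL1A2 and SPARC were not listed. Of the epithelial genes KRT8 had 12305 to 19315 reads and CDH1 had 1 to 22, and EPCAM, KRT18 and the blood genes PTPRC and CD3E were not listed, which in tables of alternative events says nothing about their expression.

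The annotated skipped exons of the family were read in the frame of each gene's canonical transcript (GENCODE release 44 on GRCh37, the build the files call hg19). The events fell on 72 distinct exons, of which 33 met a wide definition of a poison exon. Of these, 18 were exact exons of an annotated nonsense-mediated decay transcript without overlap with coding sequence (the decay type, in 8 of the 10 genes), 30 held an in-frame stop codon or had a length that is not a multiple of 3, so that the frame differed from that of the skipped form, and 15 met both criteria. The other poison exons include long blocks that span coding exons, and shortened versions of coding exons of SRSF5, TRA2A and TRA2B that keep the canonical frame and hold no premature stop. In all, 12 of the 33 overlapped coding sequence, so the decay type is the stricter class.

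The starts of 4 poison exons are shown from their first base to the first in-frame stop codon, in capitals, because TRA2A and SRSF6 held the called poison exons, TRA2B is the paralogue of TRA2A, and the SRSF3 exon lay higher after CHERP siRNA in both fractions (RNA strand, GRCh37).
TRA2A: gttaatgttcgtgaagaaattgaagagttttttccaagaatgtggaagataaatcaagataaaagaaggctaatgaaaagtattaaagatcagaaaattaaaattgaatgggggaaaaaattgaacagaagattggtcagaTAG
TRA2B: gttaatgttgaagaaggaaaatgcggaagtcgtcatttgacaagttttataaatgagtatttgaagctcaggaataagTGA
SRSF6: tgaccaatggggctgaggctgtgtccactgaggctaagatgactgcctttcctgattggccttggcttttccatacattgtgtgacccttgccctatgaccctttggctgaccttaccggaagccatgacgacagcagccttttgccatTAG
SRSF3: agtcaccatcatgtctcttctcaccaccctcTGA

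The TRA2A run lies at chr7:23561908-23562051 on the minus strand, inside intron 1, and its stop would end the protein after 59 of 282 residues. The TRA2B run lies at chr3:185649560-185649640, also minus strand, and would end the protein after 38 of 288 residues. The SRSF6 run at chr20:42087793-42087944 and the SRSF3 run at chr6:36567598-36567631 are on the plus strand and would stop after 135 of 344 and 124 of 164 residues. The whole 301-nt TRA2A exon held 4 copies of GAAGAA, counted on the RNA strand only with overlaps allowed, and 0.5% of the 1736 skipped exons whose length lay within 20% of it held as many. The 276-nt TRA2B exon held 3 copies, as many as 1.2% of 2448 exons of similar length, and the SRSF6 and SRSF3 exons held 0.

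CHERP itself, summed over its splicing events as reads per effective length, was at 0.545 and 0.335 in the EGFP libraries of whole cells and at 0.0123 and 0.0616 in the CHERP libraries, a log2 fold change of −3.45 ± 0.61 (SE; limma, adjusted p = 0.0206). With a pseudocount of 0.1 in place of 0.01 it was −1.98 (adjusted p = 0.00391), and without the first or the second EGFP library the adjusted p was 0.072 and 0.0504. In the cytoplasm it was at 0.388 and 0.273 against 0.0369 and 0.0497, under the minimum of 20 reads per library needed for the test. Both siRNA groups therefore separated by the targeted gene, in every library. These values are sums over events and depend on how many events a gene has, so levels are compared between groups and never between genes.

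In abundance, each gene of the family was either called lower after CHERP siRNA or not called. The share called was near or below that of all genes. In whole cells 2 of the 10 were lower and 0 higher, against 26.7% of 9660 genes called in either direction, 13.4% higher and 13.3% lower (limma on log2 values, Benjamini-Hochberg adjusted over all genes). In the cytoplasm 4 of 10 were lower and 0 higher, against 39% of 7293 genes called, 20.2% higher and 18.7% lower. The median log2 fold change of the family was −0.23 in whole cells and −0.33 in the cytoplasm, beside 0.016 and 0.014 over all genes tested. The siRNA groups did not overlap for 7 of the 10 in whole cells and 8 in the cytoplasm. Over all genes tested this held for 70.1% and 75.1%, so a lack of overlap does not set a gene apart. In bulk RNA fewer cells that express a gene and less RNA per cell cannot be told apart.

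SRSF11, an SR-related protein that contacts U2AF and the spliceosome, fell most. Its abundance was 20.7 and 24.1 in the EGFP libraries of whole cells and 12.1 and 13.2 in the CHERP libraries, a ratio of the means of 0.564. The log2 fold change was −0.82 ± 0.15 (SE, n = 2 libraries per group; limma, adjusted p = 0.0219). In the cytoplasm it was 3.83 and 4.48 against 1.77 and 2.18, with a log2 fold change of −1.07 ± 0.16 (limma, adjusted p = 0.011). The groups did not overlap in either fraction. The whole-cell call was lost without the first or the second CHERP library (adjusted p = 0.132 and 0.0935).

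TRA2A, a sequence-specific activator of exon inclusion, fell in both fractions. In whole cells its abundance was 25.6 and 26.5 after EGFP siRNA and 15.5 and 17.1 after CHERP siRNA (log2 fold change −0.68 ± 0.13, limma, adjusted p = 0.0263). In the cytoplasm the values were 3.74 and 3.63 against 2.25 and 2.14 (log2 fold change −0.74 ± 0.1, limma, adjusted p = 0.00981). The whole-cell call was lost without the first or the second CHERP library (adjusted p = 0.196 and 0.131) and without a minimum of reads (0.0533). TRA2B, its paralogue, had 50.6 and 55.1 against 57.8 and 61.7 in whole cells and 8.69 and 9.04 against 10.6 and 10.0 in the cytoplasm. The TRA2B groups were apart in both fractions, as for most genes tested, and the log2 fold changes of 0.18 and 0.22 did not pass the test (limma, adjusted p = 0.36 and 0.168).

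SRSF1, the founding SR protein, and SRSF3, the smallest one, which also serves mRNA export, passed only the cytoplasmic test. SRSF1 was at 5.68 and 5.33 in the EGFP libraries and at 4.2 and 3.69 in the CHERP libraries of the cytoplasm (log2 fold change −0.48 ± 0.12, limma, adjusted p = 0.0378). SRSF3 was at 14.0 and 13.5 against 10.2 and 9.68 (log2 fold change −0.46 ± 0.11, limma, adjusted p = 0.0295). Both cytoplasmic calls were lost without any 1 of the 4 libraries, with adjusted p of 0.0622 to 0.15 for SRSF1 and 0.0804 to 0.122 for SRSF3, and without a minimum of reads (0.0901 and 0.0752). In whole cells the log2 fold changes were −0.42 for both, with adjusted p of 0.0697 for SRSF1 and 0.0777 for SRSF3 in limma, so the fractions are not shown to differ. Scaling the libraries by their totals brought both past the threshold in whole cells (adjusted p = 0.0441 and 0.0474).

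SRSF6, an SR protein whose levels respond to its own activity, was at 12.3 and 10.2 against 8.94 and 8.95 in whole cells, a log2 fold change of −0.32 that missed the threshold (limma, adjusted p = 0.177). In the cytoplasm it was at 2.31 and 2.06 against 1.73 and 1.28 (log2 fold change −0.55, limma, adjusted p = 0.0723), which passed with libraries scaled by their totals (0.0447). SRSF2 and SRSF7 had log2 fold changes of −0.14 and −0.04 in whole cells and −0.15 and −0.2 in the cytoplasm, and SRSF4 had 0.05 and 0.04, with adjusted p of 0.262 to 0.917 in limma. SRSF5 was at 112.2 and 121.3 against 125.2 and 132.0 in whole cells and at 10.8 and 10.9 against 12.4 and 11.8 in the cytoplasm. Its log2 fold changes of 0.14 and 0.16 did not pass the test (limma, adjusted p = 0.458 and 0.261). The groups did not overlap, as for most genes tested.

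**Figure D1:**
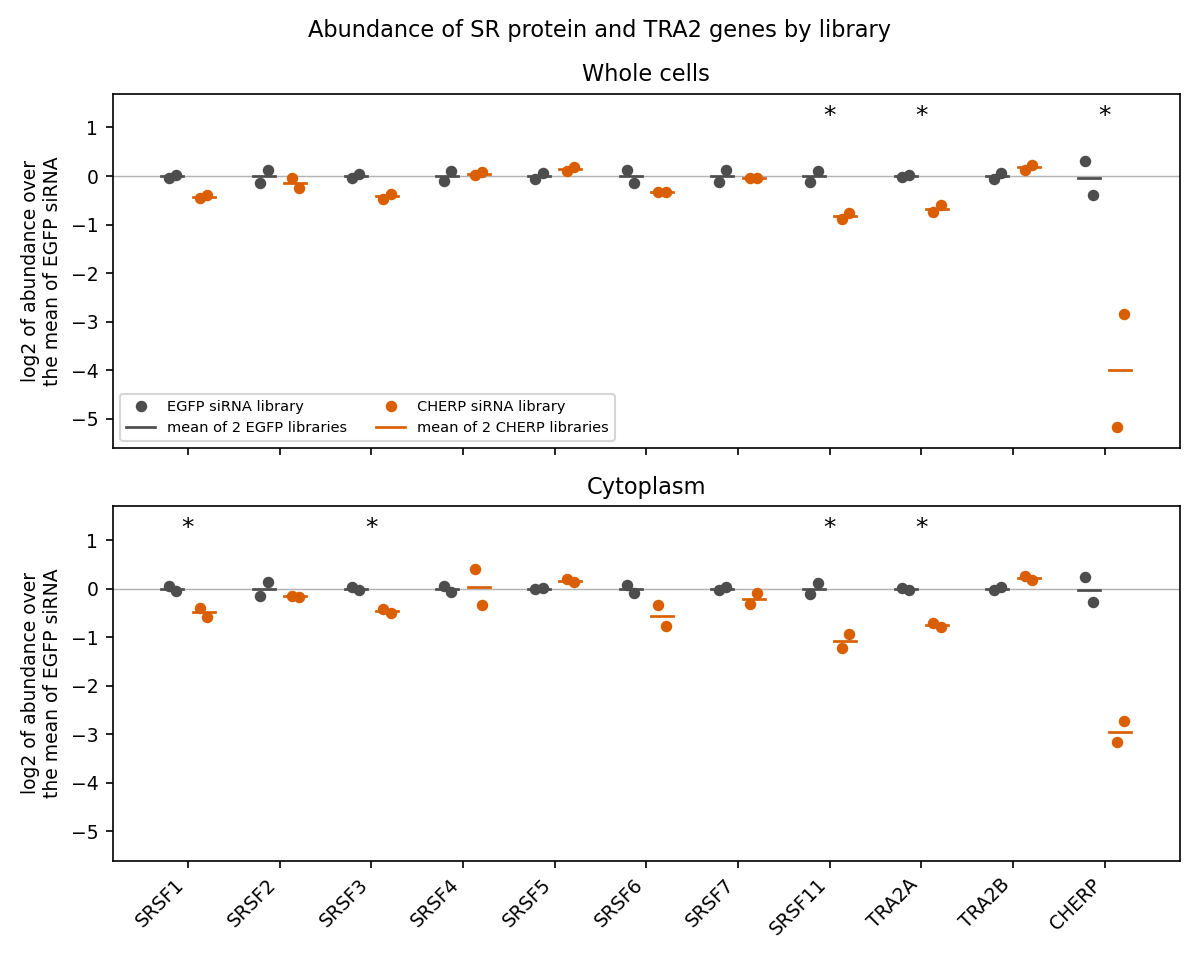
Abundance of the 10 genes and of CHERP in each library (points) and the mean of each group (lines), as the log2 of the value over the mean of the EGFP libraries of that fraction, with whole cells above and cytoplasm below. Asterisks mark genes that passed limma at an adjusted p of 0.05; SRSF11 and TRA2A lie lowest among the family in both panels, and CHERP in the cytoplasm was not tested.

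A second deposited table gives the authors' mean abundance in the cytoplasm for 2 unnamed conditions, for genes that passed their own call, and 7 of the 10 genes are in it. In the condition where CHERP stood at 209.0 against 1685.5, SRSF11 stood at 880.9 against 1654.1 and TRA2A at 676.9 against 1118.5. SRSF3 stood at 3216.3 against 4204.4, SRSF6 at 2479.1 against 3354.0 and SRSF1 at 4933.6 against 5913.7, whereas SRSF5 stood at 2793.0 against 2323.7 and SRSF4 at 1841.3 against 1340.4. No error can be given for these means. On the event sums above, SRSF4, SRSF5 and SRSF6 were not called in the cytoplasm.

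Relatives and regulators of the family, from a list of 19 that holds further SR and SR-related proteins, the kinases that phosphorylate them and their import receptor, were mostly lower where they were called. In whole cells 5 of 16 tested were lower and 0 higher, or 31.2% called against the 26.7% of all genes, with a median log2 fold change of −0.27. In the cytoplasm 10 of 17 were lower and 1 higher, with a median of −0.6, against the 39% of all genes called there. TNPO3, which imports SR proteins into the nucleus, had log2 fold changes of −1.0 ± 0.13 in whole cells and −0.99 ± 0.12 in the cytoplasm (limma, adjusted p = 0.0115 and 0.00694). SRPK2, a kinase that loads phosphate onto them, had −0.71 ± 0.17 and −1.1 ± 0.21 (limma, adjusted p = 0.0408 and 0.0185). SREK1 had −0.72 and −0.6, and both passed. None of the 5 whole-cell calls was made without either CHERP library. SON and SRRM1, scaffold proteins of nuclear speckles, had −0.89 and −0.78 in the cytoplasm, and −0.21 and −0.54 in whole cells where neither passed (limma, adjusted p = 0.345 and 0.0522). SRSF9, the only one called higher, had 1.54 and 1.56 against 4.85 and 4.86 in the cytoplasm (log2 fold change 1.64, limma, adjusted p = 0.00341) and was not listed in whole cells.

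Splicing was measured as the inclusion level, the percentage of the longer form once the reads of both forms are set per effective length. In whole cells 3 of 131 skipped exon events of the family were called, all towards inclusion, against 0.893% of 63977 events in the series and 0.455% called towards inclusion (quasi-binomial test, adjusted p under 0.05). None of 9 retained intron events was called against 3.26% in the series, with 3 of the 9 at an unadjusted p under 0.05 and 0 called by limma on the log2 odds. None of 9 alternative 5′ splice site events (background 1.13%) and none of 16 alternative 3′ splice site events (background 1.14%) was called, with 1 of each at an unadjusted p under 0.05 and 0 called by limma. Of 40 mutually exclusive exon events 4 were called, against 1.6% in the series, 3 towards the inclusion form (0.793% in the series) and 1 away from it (0.807%). Each of these 7 calls was lost by limma on the log2 odds (adjusted p = 0.21 to 0.752) and when residual degrees of freedom were counted for every group (0.0913 to 0.546). Family events held more reads, with a median of 545.2 per library for skipped exons against 88.75 in the series. For mutually exclusive exons it was 1012 against 172.5. More reads make a call easier, so these shares are not set at like depth. Over the whole series the siRNA groups did not overlap for 25.96% of skipped exon and 37.19% of retained intron events in whole cells. In the cytoplasm this held for 23.75% and 34.44%, so a lack of overlap alone does not set an event apart. The called events fell on TRA2A, SRSF6 and SRSF1.

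The measured inclusion of the TRA2A poison exon rose after CHERP siRNA. The 301-nt exon at chr7:23561751-23562051, which is skipped when exon 1 joins exon 2, was included at 14.1% and 17.7% in the EGFP libraries of whole cells. In the CHERP libraries it was included at 30.8% and 30.9%, so that both lay above both controls. The mean rose from 15.9% ± 2.59 to 30.9% ± 0.0926 (SD, n = 2), and the log2 odds rose by 1.23 ± 0.26 (SE; quasi-binomial test, adjusted p = 0.00076). Without the first or the second CHERP library the adjusted p was 0.0611 and 0.127. Behind these levels were 114 inclusion and 225 skipping reads in the first EGFP library, 158 and 237 in the second, 150 and 109 in the first CHERP library and 180 and 130 in the second.

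A 312-nt version of the same exon, with a downstream 5′ splice site, went from 16.2% and 21.5% to 32.7% and 32.9% (log2 odds 1.06 ± 0.25, adjusted p = 0.00482, quasi-binomial test). It holds the whole 301-nt exon, so reads inside that exon count for both, and the skipping reads are the same. The 2 calls are therefore not independent. When 1 library was left out, the call of the 312-nt exon held only without the second EGFP library. A 726-nt block at chr7:23561326-23562051, which runs from the start of the poison exon through the intron after it to the end of exon 2, was called in both of its mutually exclusive exon events, which count the same inclusion reads. Against exon 4 its level rose from 11.5% and 12.1% to 20.1% and 23% (log2 odds 1.04 ± 0.15, adjusted p = 1.19e-09), and against exon 3 from 40.1% and 37.5% to 54.1% and 55.7% (log2 odds 0.95 ± 0.21, adjusted p = 0.000638). The first of these held without any 1 library, and the second was lost without either CHERP library (0.0668 and 0.147). Reads of exon 2 can enter the block, so these levels are not those of the poison exon alone. Reads of the block that lie in the poison exon can in turn count for the 301-nt and 312-nt exons. The levels of these exons are thus not those of the spliced cassette alone.

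In the cytoplasm the 301-nt TRA2A exon was at 2.59% and 3.58% after EGFP siRNA and 6.71% and 9.78% after CHERP siRNA. The groups did not overlap, as for 23.75% of cytoplasmic skipped exon events in the series. A mean of 22.5 reads per library gave a log2 odds of 1.35 ± 1.02 and the event was not called (quasi-binomial test, adjusted p = 0.762). The change did not differ detectably from that in whole cells at this depth, since the difference in log2 odds was 0.12, and 0 of 34 skipped exon events of the family seen in both fractions passed the test of such a difference (3 at an unadjusted p under 0.05; background 0% of 23892).

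The 268-nt poison exon of SRSF6, at chr20:42087793-42088060 between exons 2 and 3, was called but rested on 1 library. It was at 30.8% and 67.9% in the EGFP libraries of whole cells and at 73.3% and 72.8% in the CHERP libraries, so the second EGFP library lay close to the CHERP libraries. Skipping reads were 203 in the first EGFP library and 51, 54 and 48 in the others. The log2 odds rose by 1.79 ± 0.3 (quasi-binomial test, adjusted p = 2.28e-07) with the dispersion of 2.54 shared by events of this depth, whereas the event's own was 41.8. With its own dispersion the adjusted p was 0.795, and without the first EGFP library the log2 odds were 0.37 (adjusted p = 0.888).

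Set against exon 3 in transcripts that join exon 2 to exon 4, the same SRSF6 exon went from 11.4% and 15.7% to 20.3% and 20.1% (log2 odds 0.69 ± 0.16, quasi-binomial test, adjusted p = 0.00297). In this comparison the EGFP libraries were closer together, and the call was lost with its own dispersion (adjusted p = 0.242), without the first EGFP library (0.179) and without either CHERP library (0.27 and 0.168). In the cytoplasm the exon was at 10.9% and 13.0% against 14.8% and 21.7%, with no overlap and no call (log2 odds 0.64 ± 0.28, quasi-binomial test, adjusted p = 0.762).

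In SRSF1 the called event weighed exon 3, at chr17:56083162-56083334, against a 119-nt exon that lies within the last exon of the canonical transcript. Exon 3 was at 75.6% and 69.7% in the EGFP libraries and 60.0% and 63.7% in the CHERP libraries. The reads counted for the shorter downstream exon thus made a larger share after CHERP siRNA (log2 odds −0.7 ± 0.17, quasi-binomial test, adjusted p = 0.0032). With the event's own dispersion of 4.52 in place of 2.17 the adjusted p was 0.179, and it was 0.118, 0.582 and 0.0728 without the first EGFP, the first CHERP and the second CHERP library. In its skipped exon event, between exon 3 and a downstream exon, the 119-nt exon was included at 98.7% to 100% in whole cells. Reads of the canonical last exon can also count for the 119-nt exon in both events. These levels are therefore not its use as a spliced exon alone.

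**Figure D2:**
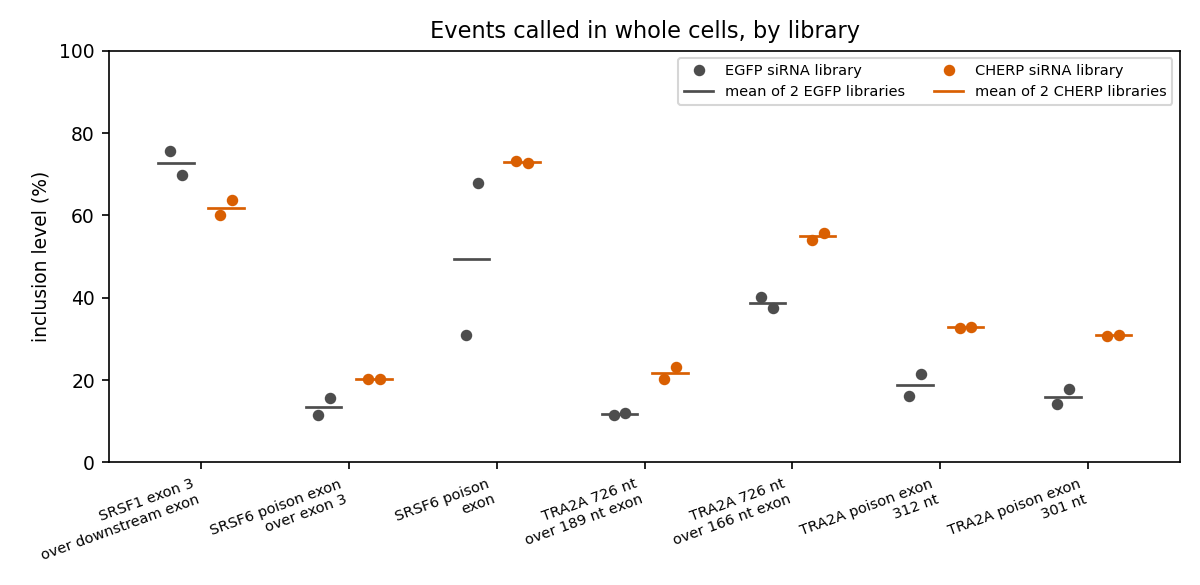
Inclusion level (%) of the 7 events of the family called in whole cells, by library (points) with the mean of each group (lines). The TRA2A events lie higher in both CHERP libraries than in both EGFP libraries, exon 3 of SRSF1 lies lower, and 1 EGFP library (67.9%) of the SRSF6 poison exon lies near the CHERP libraries.

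The poison exons as a class did not move in 1 direction. Among the 18 exons of the decay type measured in whole cells, 8 were higher and 10 lower after CHERP siRNA, with a median change of −0.572 percentage points and a range of −5.32 to 23.7. The lower ones lay in SRSF2, SRSF4, SRSF7 and SRSF11. Several of the 18 share skipping reads with another exon or form of the same gene, so they are not independent. They include a 98-nt SRSF2 exon within the last canonical exon, at a mean of 97.4% after EGFP siRNA. In the cytoplasm 13 were measured, 6 higher and 7 lower, and none of 42 skipped exon events was called against 0.254% in the series (3 at an unadjusted p under 0.05, 0 by limma). The remaining 38 exons in whole cells that were not poison exons had 19 higher and 19 lower and a median change of 0.002 points.

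SRSF3 and SRSF4 differed in direction without passing the test. The 456-nt exon of SRSF3 was at 3.76% and 3.93% in the EGFP libraries of whole cells and 5.48% and 4.84% in the CHERP libraries, and at 2.8% and 2.9% against 3.77% and 4.22% in the cytoplasm. Both fractions had CHERP libraries above EGFP libraries, with log2 odds of 0.44 ± 0.18 and 0.49 ± 0.2 (quasi-binomial test, unadjusted p = 0.0128 in each, adjusted p = 0.489 and 0.762). The 228-nt exon of SRSF4, at chr1:29486376-29486603, was at 10.2% and 12.2% against 6.5% and 6.11% in whole cells (log2 odds −0.92 ± 0.49, adjusted p = 0.784). In the cytoplasm 1 inclusion read in all was found for it.

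TRA2B, SRSF7, SRSF2 and SRSF11 had no called poison exon either. The 276-nt TRA2B exon was at 11.9% and 12.5% against 14.0% and 14.3% in whole cells, and at 4.76% and 9.92% against 4.12% and 5.4% in the cytoplasm, where the groups overlapped. The 449-nt exon of SRSF7, a protein related to SRSF3, was at 9.14% and 11.1% against 8.45% and 8.82% in whole cells and under 1% in each cytoplasmic library. The 104-nt exon of SRSF2, which lies after the stop codon, was at 9.04% and 5.42% against 2.7% and 6.3%. The 117-nt exon of SRSF11 was at 11.5% and 12.9% against 11.6% and 8.07%, so the fall of SRSF11 abundance was not accompanied by a called event, although only 12 skipped exon events of the gene were listed in whole cells. None of these exons was called in either fraction (quasi-binomial test, adjusted p from 0.739 to 0.784 in whole cells).

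**Figure D3:**
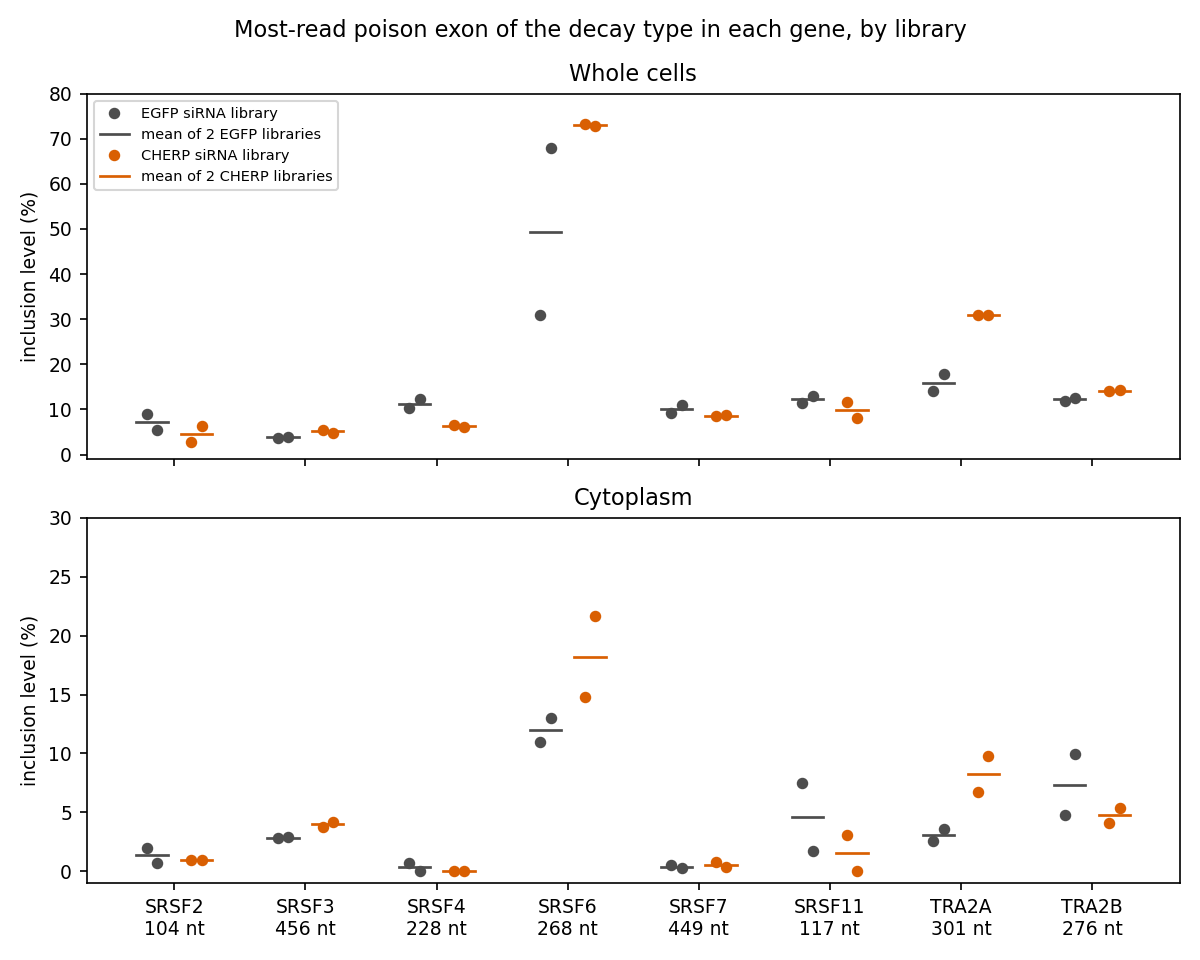
Inclusion level (%) of the most-read decay-type poison exon of 8 genes, by library (points) with group means (lines), for whole cells and the cytoplasm. SRSF6 had the highest level in both fractions, TRA2A was higher in both CHERP libraries of each fraction, and the SRSF4 and SRSF7 exons were under 1% in the cytoplasm.

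Where the most-read poison exon was a block over coding sequence, its level in whole cells was high. Reads of the coding sequence inside a block also count as inclusion. These levels are therefore not the share of transcripts that hold the whole block. The 203-nt exon of SRSF1 stood at 95.8% to 97.4% in whole cells, and its first in-frame stop is the usual one, after 248 of 248 residues. The 1743-nt block of SRSF5, the 726-nt block of TRA2A set against joining exon 1 to exon 3 and the 213-nt exon of TRA2B all stood between 96.7% and 100% in whole cells, whereas in the cytoplasm the SRSF1 exon stood at 83.7% to 94.7% and the TRA2A block at 78.7% to 100%. The 33-nt exon of SRSF11, after exon 9, stood at 1.4% and 3.74% against 3.53% and 4.3%. None of them was called.

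The called intron events all lay in SRSF5, which also held every intron event listed for the family in the cytoplasm. Its splice sites are shown because the events below turn on them: the 5′ sites at the end of exons 4 and 5 with the GT of the intron in capitals, and the 3′ sites with the AG of the intron in capitals (chr14, plus strand, GRCh37).
SRSF5 intron 4, 5′ site: acgGTatgt
SRSF5 intron 4, 3′ site: atacgaattttcttcctcAGaaa
SRSF5 intron 5, 5′ site: cagGTttgt
SRSF5 intron 5, 3′ site of exon 6: cacaattatcttgtgttaAGgat
SRSF5 intron 5, upstream 3′ site: ttaaaccctttatttgccAGcct

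Intron 4 lies at chr14:70235614-70235898 and intron 5 at chr14:70235969-70237183, and the upstream site ends at position 70236227 inside intron 5. If kept, intron 4 brings a TGA stop 28 bases in and would end the protein after 107 of 272 residues, and intron 5 brings a TGA stop 9 bases in, after 124 residues.

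The measured retention of both introns was lower in the cytoplasm after CHERP siRNA. Of 5 retained intron events of the family in the cytoplasm, all in SRSF5, 2 were called and both fell, against 2.12% of 1696 events called and 1.77% called lower. The family events had a median of 99.75 reads per library, against 29 in the series. The calls were lost by limma (adjusted p = 0.461 in each) and with residual degrees of freedom of every group (0.668 for intron 4 and 0.492 for intron 5). Intron 5 was retained at 12.5% and 10.1% in the EGFP libraries and at 4.94% and 4.55% in the CHERP libraries, well apart. The mean fell from 11.3% ± 1.76 to 4.75% ± 0.278 (SD, n = 2), a ratio of 0.42 and a log2 odds of −1.33 ± 0.2 (SE; quasi-binomial test, adjusted p = 4.27e-09). Reads that kept the intron numbered 291, 270, 177 and 132 in the 4 libraries, and spliced reads 115, 137, 193 and 157. Transcripts that use the upstream 3′ site also give reads in this intron, so the level is not that of the whole intron alone. The 259-nt part before that site, a separate event, was at 75.5% and 75.7% against 73.3% and 79.8%, with overlap. In whole cells it was at 90.6% and 88.8% against 92% and 92.8%, and neither was called.

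In whole cells intron 5 was retained far more, at 40.7% and 40.2% against 34.7% and 37%, and the lower values after CHERP siRNA were not called (log2 odds −0.28 ± 0.13, quasi-binomial test, adjusted p = 0.323). The change in the cytoplasm exceeded that in whole cells by −1.06 on the log2 odds scale (interaction of siRNA and fraction, adjusted p = 0.0419), against 0.188% of 1599 retained introns called. Leaving out any 1 of the cytoplasmic libraries raised the adjusted p to between 0.318 and 0.814, and leaving out the first or second whole-cell CHERP library raised it to 0.0526 and 0.128. With the event's own dispersion it was 0.126.

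Intron 4 was retained at 4.04% and 9.69% against 1.62% and 2.03% in the cytoplasm, with the EGFP libraries further from each other than the lower one was from the CHERP libraries. The log2 odds fell by 1.95 ± 0.57 (quasi-binomial test, adjusted p = 0.0139), but with the event's own dispersion of 4.53 the adjusted p was 0.552 and it was 0.887, 0.388 and 0.136 without the second EGFP, the first CHERP and the second CHERP library. In whole cells the intron was at 11.4% and 11% against 7.38% and 8.69%, without overlap and just above the threshold (log2 odds −0.53 ± 0.17, adjusted p = 0.0511). Testing only events with a mean of 10 reads per library, or without a trend of the dispersion, called 1 retained intron of the family in whole cells, towards less retention.

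The upstream 3′ site inside intron 5 gives exon 6 a 1030-nt form, and its use fell alongside. In the cytoplasm it was used at 12.8% and 9.55% against 5.36% and 4.94% (log2 odds −1.19 ± 0.2, quasi-binomial test, adjusted p = 1.1e-06; 1 of 8 alternative 3′ splice site events of the family, background 0.372%). The call was lost without the first EGFP (0.0569), the first CHERP (0.71) or the second CHERP library (0.798). In whole cells it was used at 34.2% and 33.6% against 28.4% and 29.8% (log2 odds −0.32 ± 0.1, adjusted p = 0.124). The event has the same spliced reads as the retention of intron 5, and most of its long-form reads lie in that intron, so the 2 calls describe 1 change.

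At the other end of the gene a downstream 5′ splice site of the non-coding exon 1, which lengthens it from 163 to 288 nt, was used at 18.9% and 26.8% against 10.3% and 15.9% in the cytoplasm (log2 odds −1.02 ± 0.26, quasi-binomial test, adjusted p = 0.0179; 1 of 5 alternative 5′ splice site events, background 0.617%). In whole cells it was at 17.0% and 10.7% against 13.1% and 13.9%, with overlap and a log2 odds of −0.003. The cytoplasmic call was lost with the event's own dispersion of 5.02 (adjusted p = 0.851) and without the second EGFP library (0.898) or the first CHERP library (0.907).

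**Figure D4:**
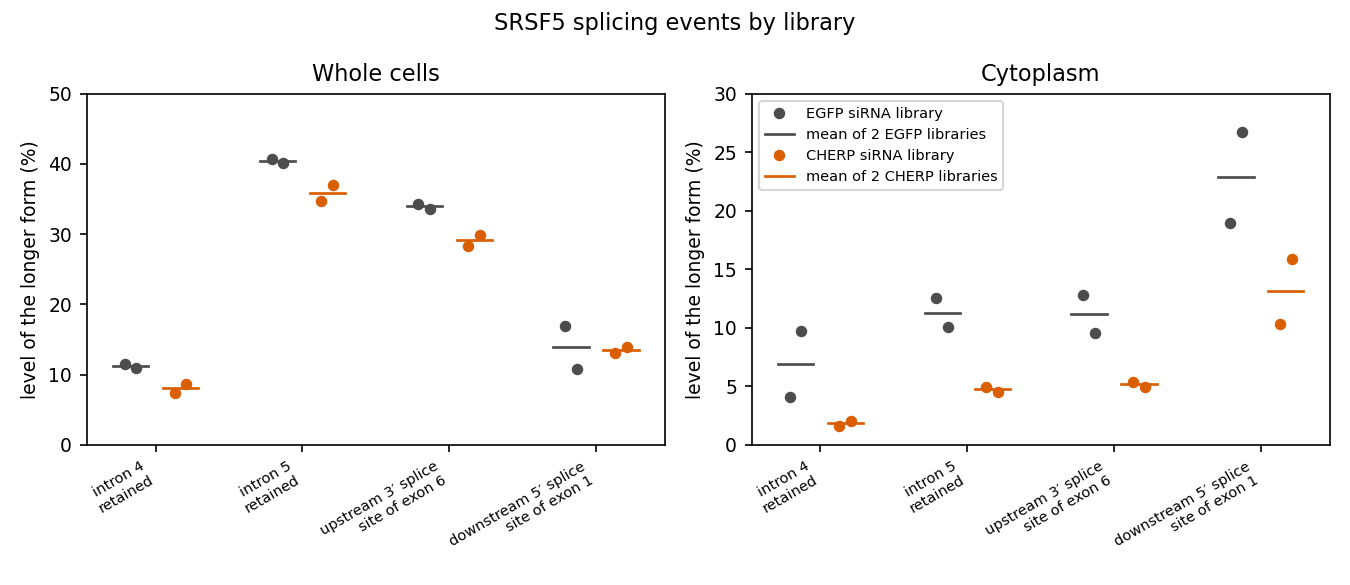
Level of the longer form (%) of 4 SRSF5 events by library (points) with group means (lines), for whole cells and the cytoplasm. All 4 were lower in both CHERP libraries of the cytoplasm, and in whole cells introns 4 and 5 and the upstream 3′ site were lower by less while the 5′ site of exon 1 overlapped.

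The other introns listed for the family gave no call. The 759-nt intron of SRSF1, which takes in intron 3 and the start of the last exon, was at 97.2% and 97.5% against 98.3% and 98.3% in whole cells, and intron 3 of SRSF7 was at 10.4% and 12.5% against 11.3% and 12.6%. The most-read intron of TRA2A, between the 79-nt form of its poison exon and exon 2, stood at 91.3% to 100%. The 280-nt intron after the 312-nt form stood at 67.2% and 54.6% against 78.3% and 79.1% (log2 odds 1.29, quasi-binomial test, adjusted p = 0.123). None of 5 mutually exclusive exon events of the family was called in the cytoplasm, against 0.863% in the series, with 1 at an unadjusted p under 0.05 and 0 by limma.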

How the data were processed

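U2OS RNA was sequenced from 2 libraries in each of 4 groups (8 in all). Per the labels the authors aligned reads to hg19 with STAR 2.5.2b and used RSEM 1.2.25, and they deposited rMATS tables of 5 event types for each fraction. Each deposited cell joins the inclusion or skipping read counts of 2 libraries with a comma, in an order without replicate numbers, beside the effective length of each form (144 for skipping in whole cells, 73 in the cytoplasm), so whole-cell and cytoplasmic levels carry different lengths. The deposited gene table of the cytoplasm gives the authors' mean normalized count per condition, only for genes past the authors' own call. The authors' p-values, FDR and fold columns, and 20 columns of inclusion levels, were not used.

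Inclusion against skipping reads were tested per event by a quasi-binomial model, with Pearson dispersion moderated by limma 3.58.1 (R 4.3.3) over all events of a type, with a trend on mean reads and a floor of 1, and Benjamini-Hochberg adjustment at 0.05. The moderation gave every event the shared dispersion of its depth, so its own spread had no weight. How residual degrees of freedom were counted was settled only after several ways had been run and their calls seen: groups in which a single form was seen were left out, which gave the numbers of calls known from earlier processing of these files. Counting every group called 0 events of the family, so the calls rest on this choice.

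Abundance was the sum over skipped exon and alternative splice site events of read counts per effective length, with median-ratio scaling, kept where the mean reached 20 reads per library, and was tested by limma on log2(value + 0.01). Fold changes of low genes are understated. Distinct exons and introns are given by their most-read event. Genes named are all 10 members, every exon or intron with a called event, and the most-read poison exon and retained intron of each gene. The other listed TRA2A introns are given beside its most-read one. The most-read decay-type exons were added after their values were seen. The 6 relatives named had the largest called changes. Members and lists were chosen with earlier results of these data known. Methods were tested on simulated data.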

Additional observations from a re-analysis of the deposited data

Results flagged for a closer look

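The measured retention of SRSF5 intron 5 changed more in the cytoplasm than in whole cells, which is the difference between fractions that passed its own test. As given above, it did not pass with the event's own dispersion or without any 1 of the cytoplasmic libraries. Without 1 library the difference ranged from −1.24 to −0.88. The log2 odds changed by −0.28 in whole cells and −1.33 in the cytoplasm, a difference of −1.06 (quasi-binomial interaction of siRNA and fraction, adjusted p = 0.0419). Both cytoplasmic CHERP libraries lay below both EGFP libraries, as did both whole-cell CHERP libraries. The sequencing of the cytoplasm was shallower, with 368.0 reads per library over this event against 3673 in whole cells, and the part of depth in the difference was not tested.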

How the results depend on the processing

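No paired analysis was possible because the columns carry no replicate numbers. With 2 libraries per group, many calls depend on 1 library or on how the dispersion is set, and the causes were not tested. By limma on the log2 odds, or with residual degrees of freedom counted for every group (an alternative added after seeing the data), 0 of 3 skipped exon, 0 of 4 other whole-cell, 0 of 2 retained intron and 0 of 2 other cytoplasmic calls were made, and the second also gave 0 for the difference between fractions. With the dispersion raised to at least 1 before moderation, or each event's own dispersion where larger (both added after seeing the data), the other whole-cell events kept 2 calls, the cytoplasmic retained introns 1, the other cytoplasmic events 1 and the difference between fractions 0. A minimum of 10 reads or no trend called 1 retained intron in whole cells in place of 0.

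Leaving out each library in turn gave 1 to 3 skipped exon, 0 to 0 retained intron and 1 to 4 other calls in whole cells, 0 to 0, 1 to 2 and 0 to 1 in the cytoplasm, and 0 to 2 for the difference between fractions. The first whole-cell EGFP library and each CHERP library took the whole-cell skipped exon calls to 1. Retention of SRSF5 intron 5 in the cytoplasm stayed called without any 1 cytoplasmic library (log2 odds −1.52 to −1.16), as did the TRA2A block against exon 4 without any 1 whole-cell library (0.91 to 1.16). The 301-nt TRA2A exon (log2 odds 1.05 to 1.44) missed the threshold without either CHERP library (adjusted p = 0.0611 and 0.127).

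For abundance, without a minimum of reads 1 family gene in whole cells and 2 in the cytoplasm, and 1 and 4 relatives, were called. Scaling by the totals called 4 in whole cells. In the cytoplasm it moved the median of all genes from 0.014 to −0.1, and calls from 1475 higher and 1367 lower to 1094 and 1753. It turned SRSF4 to −0.0023 in whole cells and −0.080 in the cytoplasm. Leaving out 1 library gave 0 to 2 (whole cells) and 2 to 3 (cytoplasm) family genes and 0 to 5 and 4 to 7 relatives. Without either whole-cell CHERP library 0 family genes were called. Without 1 library the CHERP change ranged from −4.29 to −2.6 in whole cells (adjusted p = 0.072 and 0.0504 without the first or second EGFP library) and from −2.91 to −2.42 in the cytoplasm, where a pseudocount of 0.1 gave −1.58 against −2.67 (−1.98 against −3.45 in whole cells). SRSF4 ranged from −0.064 to 0.16 in whole cells and −0.32 to 0.42 in the cytoplasm, SRSF7 in whole cells from −0.17 to 0.086 and SRSF2 in the cytoplasm from −0.30 to 0.0033, so no direction is given for them. SRSF11 and TRA2A kept their cytoplasmic calls in all 8 alternatives.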
